A study of Mus musculus with 4 samples.

Results

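The cytosolic and mitochondrial chaperones were examined as a group of 40 genes: the HSP70, HSP110, HSP90 and DNAJ families, the mitochondrial and cytosolic chaperonins, their cochaperones and the heat shock factors. Their probe sets were those that the annotation of the Affymetrix mouse array assigns to 1 of these symbols alone, a rule that uses no measured value. It found 97 of 45037 probe sets, for 37 of the 40 genes. Of the 97 probe sets, 85 passed the filter on low signals, 12 did not, and all 37 genes kept at least 1. Hsf1 and Hsp90ab1 had no probe set by this rule, both probe sets of Ptges3 are shared with a pseudogene, and these 3 genes were left out of the comparison of signals. The promoter of Ptges3 was counted with the others, and its shared probe sets are given at the end.

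RNA came from naive helper T cells, freshly isolated from mice of 10 to 11 weeks and sorted as naive cells, positive for CD4 and negative for CD44. The 2 knockout arrays hold cells of mice with the genotype CD4-cre fur flox/flox, in which a Cre recombinase under the CD4 promoter deletes furin, a protease that matures precursor proteins, in T cells. The 2 wild-type arrays hold cells of littermates with the genotype fur flox/flox, which carry the same floxed alleles without Cre. The labels do not say whether each array is 1 animal or a pool, so any p-value here reflects the variation among 4 arrays, which may be technical.

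Chaperones bind unfolded stretches of proteins and help them fold, assemble or be degraded. HSP70 proteins work in cycles of ATP hydrolysis that DNAJ proteins start and nucleotide exchange factors end, HSP90 acts later on kinases and receptors, and chaperonins enclose whole chains. Under heat or other proteotoxic stress the factor HSF1 binds heat shock elements, repeats of the motif GAA in alternating orientation, and raises transcription of the inducible members, whereas constitutive members are made in unstressed cells. For the comparison the members were divided by this known behaviour into 9 strongly inducible genes, 8 partly inducible ones and 22 constitutive ones, of which 9, 8 and 19 were measured. The members and classes were chosen with earlier results of these data known, so a gap between classes is a description only. Hspa2, which is known best from germ cells, was left outside these classes.

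Furin itself, by its only probe set, had MAS5 signals of 435.1 and 343.9 on the wild-type arrays and 391.4 and 446.9 on the knockout arrays, so the groups overlapped. Which exons are floxed, and whether the probes lie in them, is not given in the labels, so this value is no check of the genotype. Arrays numbered 1 and 2 stood apart in both groups. The geometric mean of the bacterial hybridisation controls was 6.25-fold higher on wild-type array 2 than on array 1 and 6.09-fold higher on knockout array 2 than on array 1, and the Gapdh control probe sets had a 3' over 5' signal ratio of 3.35 to 4.09 on arrays numbered 1 and 0.905 to 0.934 on those numbered 2. The same ratio of the actin controls ran the other way, with 1.20 to 1.23 on arrays numbered 1 and 1.72 to 1.77 on those numbered 2. For 27 of the 37 chaperone genes the mean difference between numbers exceeded that between genotypes. Each difference is therefore given within arrays numbered 1 and within arrays numbered 2, and the number's part in it was not tested. Differences are knockout minus wild type on the log2 scale after 15.3 was added to each signal, so that changes of dim probe sets are understated, and an SE is that of the limma fit without a block unless it is said to be with it. Within a number there is 1 array per genotype and thus no test, and over all 4 arrays an exact two-sided permutation test cannot go below p = 0.333.

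The inducible HSP70 genes Hspa1a and Hspa1b stood out among the chaperones, with knockout signals at least 2-fold above wild type in every comparison of arrays, while the TRiC chaperonin and most constitutive members lay close to 0. Hsph1, Stip1, Ahsa1 and Hsp90aa1 lay between them, at 0.41 to 0.87, with a larger difference in arrays numbered 1. Bag3, at 0.67, Hspa2, at 0.54, and Hspe1, at 0.43, lay there too, and of these Bag3 had the larger difference in arrays numbered 2. Other inducible members such as Dnajb1, at 0.17, and Chordc1, at 0.18, lay nearer to the constitutive ones. Without a block, limma put 0 of the 85 probe sets under a Benjamini-Hochberg adjusted p of 0.05, as it did 0% of all 22518, with 5 of the 85 and 145 of the 22518 at an unadjusted p under 0.05. With the array number as a replicate block limma called 1 of the 85, Hspa1a, against 0.0266% of all probe sets. With the block and a trended prior it called 9 as higher and 0 as lower, against 0.795% and 0.36% of all. This last fit made more false calls on simulated data than its threshold allows, which limits every p given here with the trended prior. The 9 were 1 of Hspa1a, 3 of Hspa1b and 1 each of Hspa8, Hsph1, Hsp90aa1, Dnajb1 and Ahsa1.

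Both knockout arrays lay above both wild-type arrays for 18 of the 85 probe sets and below them for 1, a dim probe set of Cct4, against 7.62% and 9.54% of all probe sets. By gene, with the brightest kept probe set each, the count above was 8 of 37, against 8.69% of 10211 genes: Hspa1a, Hspa1b, Hspa2, Hspa9, Hsp90aa1, Hspb1, Bag3 and Stip1. Within both numbers 18 of 37 genes were higher and 7 were lower, against 27.7% and 27.2% of all genes. The median difference over the 37 genes was 0.16, with 0.26 in arrays numbered 1 and 0.05 in those numbered 2, beside -0.002, 0.02 and -0.01 over all genes. The chaperone median was 0.001 without knockout replicate 1 and 0.31 without knockout replicate 2.

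**Figure D1:**
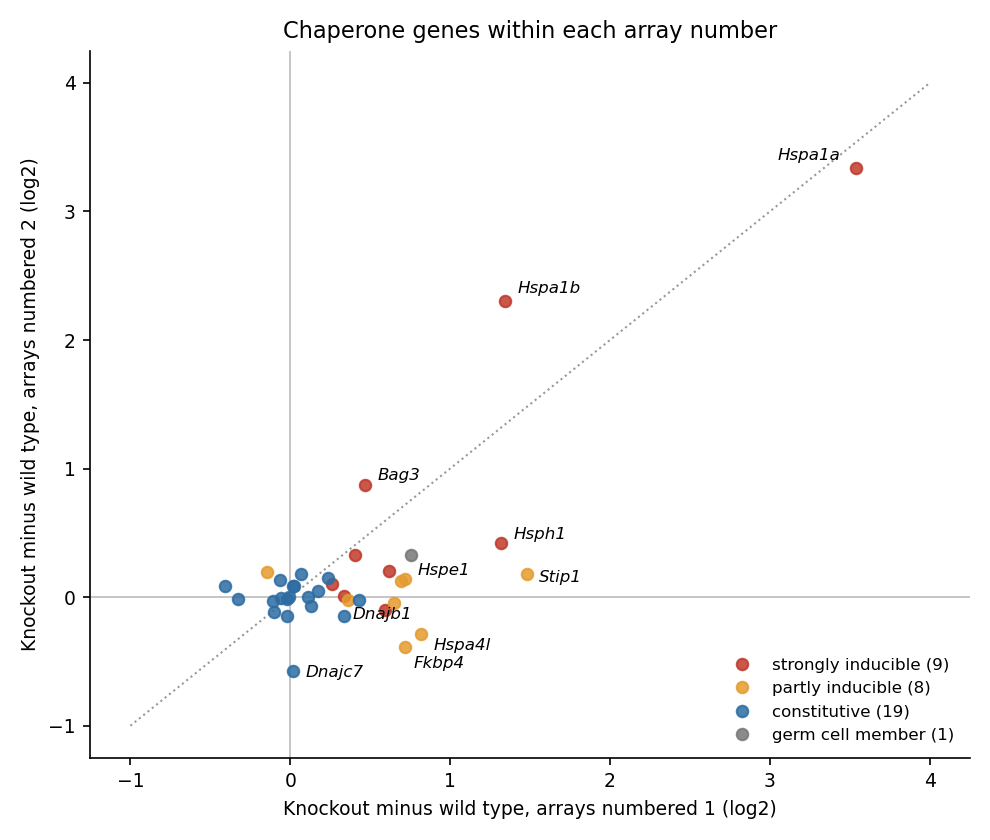
Difference between the knockout and wild-type array (log2) within arrays numbered 1 (x axis) and within arrays numbered 2 (y axis) for 37 chaperone genes, 1 point per gene, coloured by class; the dotted line marks equal differences. Hspa1a, at 3.54 and 3.34, and Hspa1b, at 1.35 and 2.30, lie far from the rest, while several partly inducible genes such as Stip1, at 1.48 and 0.18, extend along the x axis only.

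Hspa1a encodes the stress-inducible cytosolic HSP70. Its only probe set gave 1130.3 and 224.8 on wild-type arrays 1 and 2, and 13319.6 and 2412.0 on knockout arrays 1 and 2. The groups did not overlap, and within each genotype array 1 was brighter than array 2. The difference was 3.44 (SE 1.12, 95% interval 0.52 to 6.36), that is 11.6-fold within arrays numbered 1 and 10.1-fold within arrays numbered 2. With the block the SE was 0.19, the interval 2.96 to 3.92 and the adjusted p in limma 0.0345, against 1 without it. Leaving out 1 array gave differences from 2.21 to 4.67.

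Hspa1b is the neighbouring copy of Hspa1a and encodes a near-identical protein, so it is uncertain which of the pair a signal comes from. Its brightest probe set read 6095.1 and 3853.1 on the wild-type arrays and of 15513.3 and 19057.0 on the knockout arrays. Both knockout arrays were again above both wild-type arrays, here by more in arrays numbered 2 (2.30) than in arrays numbered 1 (1.35). The difference was 1.82 (SE 0.39; 0.28 with the block, where the limma adjusted p was 0.344, and 3.3e-09 with the trended prior added). The other probe sets of Hspa1b differed by 1.96 and 2.36, and together with that of Hspa1a these were the 4 chaperone probe sets at least 2-fold above wild type in all comparisons, a mark that 0.164% of all probe sets reached.

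The promoters of this pair are shown because both genes lay higher on the knockout arrays and because the windows carry the motif that HSF1 is known to bind. The 250 bases before the RefSeq start are chr17:34972157-34972406 for Hspa1a and chr17:34959239-34959488 for Hspa1b, both on the minus strand of GRCm38.p6, and are written 5′ to 3′ along the gene. Capitals mark each match to the heat shock element core, GAANNTTC or TTCNNGAA, which read the same on both strands.
Hspa1a: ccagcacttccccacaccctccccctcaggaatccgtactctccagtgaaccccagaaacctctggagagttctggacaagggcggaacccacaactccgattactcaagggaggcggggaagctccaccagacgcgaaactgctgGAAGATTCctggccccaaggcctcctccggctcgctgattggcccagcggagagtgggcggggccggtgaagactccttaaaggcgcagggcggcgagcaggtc
Hspa1b: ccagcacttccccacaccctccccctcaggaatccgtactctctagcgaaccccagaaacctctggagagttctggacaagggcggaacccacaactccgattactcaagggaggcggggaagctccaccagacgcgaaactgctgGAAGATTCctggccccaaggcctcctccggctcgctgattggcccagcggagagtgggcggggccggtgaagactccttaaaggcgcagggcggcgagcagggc
The windows differ at 3 of 250 positions, and each has 1 core, which begins 104 bases before the start. Their near identity extends upstream of the transcripts, and this window does not separate the genes.

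**Figure D2:**
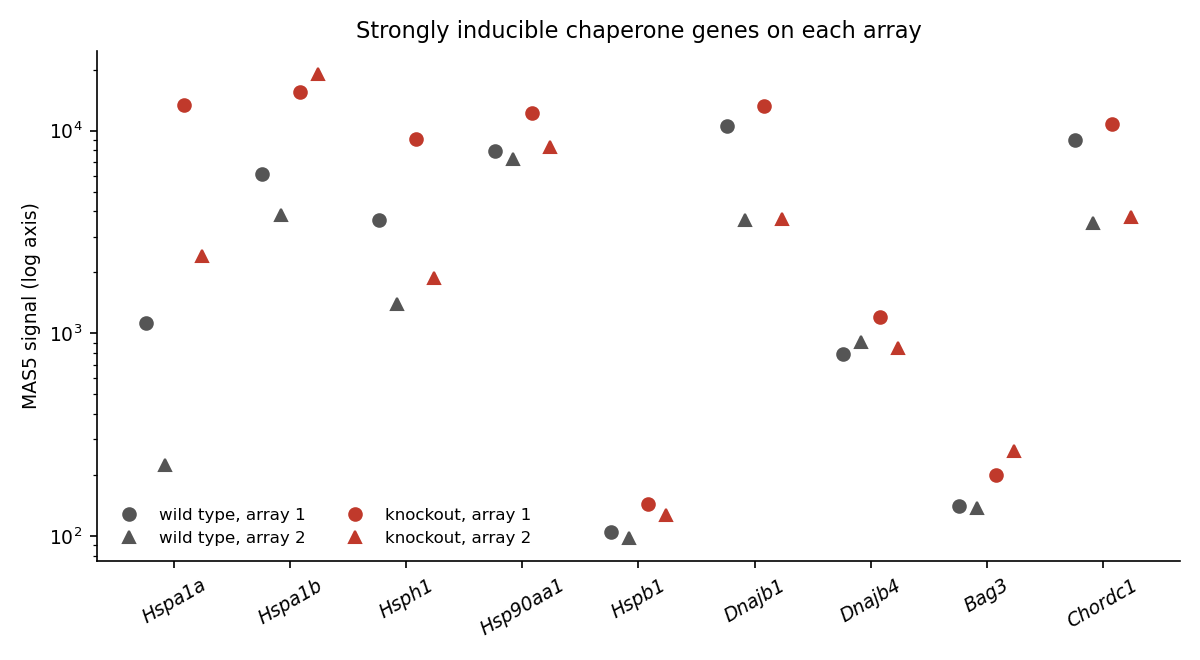
MAS5 signal (log axis) of the 9 strongly inducible chaperone genes on each array, by the brightest kept probe set; circles are arrays numbered 1, triangles arrays numbered 2, grey wild type and red knockout. Hspa1a and Hspa1b are separated by genotype, whereas Dnajb1 and Chordc1 are separated by array number, with 9025.6 to 13314.9 on arrays numbered 1 and 3515.5 to 3767.0 on those numbered 2.

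Hspa8 encodes HSC70, the HSP70 that unstressed cells make in the cytosol, and is counted here among the partly inducible genes. Its 4 kept probe sets disagreed. The brightest gave 21532.8 and 28577.4 on the wild-type arrays and 19465.5 and 32733.0 on the knockout arrays. These groups overlapped, and the difference was 0.03 (SE 0.42; -0.15 and 0.20 by number). The dimmest gave 725.2 and 530.8 on the wild-type arrays and 6015.9 and 1397.2 on the knockout arrays. Both knockout arrays lay above both wild-type arrays there, by 3.03 in arrays numbered 1 and 1.37 in arrays numbered 2 (mean 2.20, SE 0.76; 0.40 with the block, limma adjusted p = 0.437, or 8.36e-07 with the trended prior). The other probe sets were at -0.02 and 0.41. An x in a probe set's name marks probes that also match other sequences, and both of the brightest Hspa8 probe sets carry it. So do other chaperone probe sets, among them that of Hspa1b at 1.96 and the brightest ones of Cct2 and Cct4.

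The other 3 members of the HSP70 family had smaller differences. Hspa9, the HSP70 of mitochondria, had 3903.8 and 3542.0 in wild type and 4608.2 and 3930.4 in knockout. Its groups did not overlap, but the difference was 0.19 (SE 0.33), and its other kept probe sets were at 0.21 and -0.24. Hspa14, a ribosome-associated member, was at -0.02 (SE 0.37). The probe set of Hspa2 was dim, with 42.5 and 70.4 in wild type and 82.2 and 92.5 in knockout. It differed by 0.54 (SE 0.37; limma adjusted p = 1 without the block and 0.589 with it).

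The HSP110 proteins are relatives of HSP70 that act as its nucleotide exchange factors. Hsph1, the most strongly heat-induced of them, had 3636.7 and 1400.9 in wild type and 9111.1 and 1881.9 in knockout. The groups overlapped, and arrays numbered 1 were brighter in both genotypes. Within numbers the difference was 1.32 and 0.42 (mean 0.87, SE 0.91, or 0.27 with the block, where the limma adjusted p was 0.540, or 0.00546 with the trended prior). Without knockout replicate 1, which mixes genotype and array number, the difference was -0.26. A second probe set, at 608.8 and 655.2 in wild type and 1814.3 and 771.6 in knockout, did not overlap and differed by 0.89 (SE 0.51). Hspa4l had a difference of 0.82 in arrays numbered 1 and -0.28 in those numbered 2 for its brightest probe set, while its other 4 probe sets were positive in both numbers. Hspa4 was at 0.04 (SE 0.34), although a dimmer probe set of it reached 1.33 in arrays numbered 1 and lay at -0.04 in arrays numbered 2.

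Hsp90aa1 encodes the inducible cytosolic HSP90. The signals of its brightest probe set were 7938.9 and 7211.4 in wild type and 12166.3 and 8302.0 in knockout, without overlap. The difference was 0.41 (SE 0.37; 0.62 and 0.20 by number). Of its other kept probe sets, one had 3336.3 and 3107.6 in wild type and 8304.8 and 4628.2 in knockout, a difference of 0.94 (SE 0.42; 0.24 with the block, limma adjusted p = 0.527, or 0.000555 with the trended prior), and the remaining one was at 0.81 and -0.02 by number. All 3 kept probe sets thus lay between 0.39 and 0.94.

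The 4 measured partners of HSP90 had larger differences in arrays numbered 1 than in arrays numbered 2. Stip1, which links HSP70 to HSP90, had signals of 669.1 and 1115.9 in wild type and 1894.0 and 1268.5 in knockout. The groups did not overlap, but the within-number differences were 1.48 and 0.18 (mean 0.83, SE 0.43; limma adjusted p = 1, or 0.0614 with the block and trended prior). Ahsa1, which stimulates the ATPase of HSP90, was at 0.69 and 0.13 by its brightest probe set. Its second probe set had 438.4 and 371.9 in wild type and 1581.5 and 482.4 in knockout, or 1.82 and 0.36 by number, and had a limma adjusted p of 0.560 with the block, or 0.0219 with the trended prior. Fkbp4, a peptidyl-prolyl isomerase of steroid receptor complexes, was at 0.72 in arrays numbered 1 and -0.39 in those numbered 2, while the dimmest of its 3 probe sets did not overlap and differed by 0.79 (SE 0.39). Chordc1, a stress-responsive HSP90 partner, had 9025.6 and 3515.5 in wild type and 10837.9 and 3767.0 in knockout, a difference of 0.18 (SE 0.73; 0.26 and 0.10 by number). The median over these 4 genes was 0.70 in arrays numbered 1 and 0.11 in arrays numbered 2.

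Hspe1 and Hspd1 encode HSP10 and HSP60, the lid and the barrel of the mitochondrial chaperonin, and are transcribed away from each other. Hspe1 had signals of 2799.5 and 13090.0 in wild type and 4614.9 and 14433.0 in knockout. The array number separated these values and the genotype did not, with differences of 0.72 and 0.14 within numbers (mean 0.43, SE 0.94; 0.22 with the block). A second Hspe1 probe set gave 0.81 and 0.21. Hspd1 was at 0.36 and -0.02 (mean 0.17, SE 0.35). The region between these genes is shown because a promoter window of each contains the same elements, read from opposite strands. They lie at chr1:55088049-55088086 of GRCm38.p6. Another RefSeq window of Hspd1, chr1:55088244-55088493, has 0 cores. The first line is on the plus strand and the second on the minus strand, and capitals again mark cores.
Hspe1: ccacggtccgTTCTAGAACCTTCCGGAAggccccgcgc
Hspd1: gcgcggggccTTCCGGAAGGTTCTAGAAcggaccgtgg
The 3 overlapping cores make up a run of alternating units with 2 bases between neighbours.

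Hspb1, the small heat shock protein HSP27 or HSP25, was dim, with 105.1 and 98.0 in wild type and 144.0 and 126.6 in knockout. The groups did not overlap and the difference was similar in both numbers, 0.40 and 0.32 (mean 0.36, SE 0.32; 0.19 with the block, limma adjusted p = 0.658). Bag3, a cochaperone that ties HSP70 to small heat shock proteins and to autophagy, had 141.2 and 136.8 in wild type and 200.7 and 263.6 in knockout. It differed by 0.67 (SE 0.34; 0.21 with the block, limma adjusted p = 0.540) and was larger in arrays numbered 2 (0.87) than in arrays numbered 1 (0.47). Of the 9 strongly inducible genes 7 had the larger difference in arrays numbered 1, and Hspa1b and Bag3 were the exceptions.

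The other HSP70 cochaperones were constitutive by class and close to 0. Bag1, another nucleotide exchange factor, was at -0.003 (SE 0.41), Hspbp1 at 0.03 (SE 0.40) and Stub1, the ubiquitin ligase CHIP, at -0.08 (SE 0.36). St13, the HSP70-interacting protein, was at 0.34 in arrays numbered 1 and -0.15 in arrays numbered 2. A second Stub1 probe set reached -0.94 in arrays numbered 2 and 0.14 in arrays numbered 1. The only heat shock factor measured was Hsf2, whose kept probe set had 150.5 and 91.5 in wild type and 109.4 and 97.8 in knockout, with overlap and a difference of -0.16 (SE 0.38).

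DNAJ proteins deliver clients to HSP70. Dnajb1, the HSP40 that is induced with Hspa1a under heat, had a brightest probe set with signals of 10530.9 and 3633.8 in wild type and 13314.9 and 3657.2 in knockout. Only the array numbers were separated by it, and the difference was 0.17 (SE 0.84; 0.34 and 0.01 by number). Its second probe set had 850.9 and 2192.0 in wild type and 4115.4 and 2321.0 in knockout. These groups did not overlap, but the difference was 2.25 in arrays numbered 1 and 0.08 in arrays numbered 2 (mean 1.17, SE 0.60; 0.50 with the block, limma adjusted p = 0.609, or 0.0196 with the trended prior).

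Dnajb4 had 789.5 and 905.3 in wild type and 1200.7 and 843.7 in knockout by its brightest probe set, with overlap and differences of 0.60 and -0.10 by number. A dimmer probe set of it, at 116.7 and 205.4 in wild type and 267.7 and 288.4 in knockout, did not overlap and was at 1.10 and 0.46, and another was at 0.26 and -0.39. Dnaja1, a partly inducible partner of HSC70, was at 0.65 and -0.05, and its other probe sets were positive in both numbers. The constitutive Dnaja2, Dnajb6 and Dnajc7 were at -0.17, -0.07 and -0.28 (SE 0.34, 0.35 and 0.41). In Dnajc7 the difference came from arrays numbered 2 (-0.57), since it was 0.02 in arrays numbered 1.

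TRiC is the cytosolic chaperonin, a double ring of 8 different subunits that folds actin and tubulin among others. All 8 subunit genes, Tcp1, Cct2, Cct3, Cct4, Cct5, Cct6a, Cct7 and Cct8, were measured, and their differences lay between -0.11 for Cct8 and 0.20 for Cct4. Their median was 0.06, with 0.04 in arrays numbered 1 and 0.03 in arrays numbered 2. Cct5 can stand for them, with signals of 10266.0 and 11998.2 in wild type and 10450.3 and 12740.2 in knockout and a difference of 0.06 (SE 0.34; with the block the 95% interval was -0.41 to 0.52). By these brightest probe sets the groups of all 8 subunits overlapped, and with the block their 95% intervals stayed within -0.58 and 0.73. Other kept probe sets reached further: one of Cct2 lay above wild type on both knockout arrays, at 0.40 (SE 0.34), a dim one of Cct4 lay below on both, at -0.50 (interval with the block -1.04 to 0.04), and one of Cct3 had an interval with the block of -0.17 to 1.12.

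**Figure D3:**
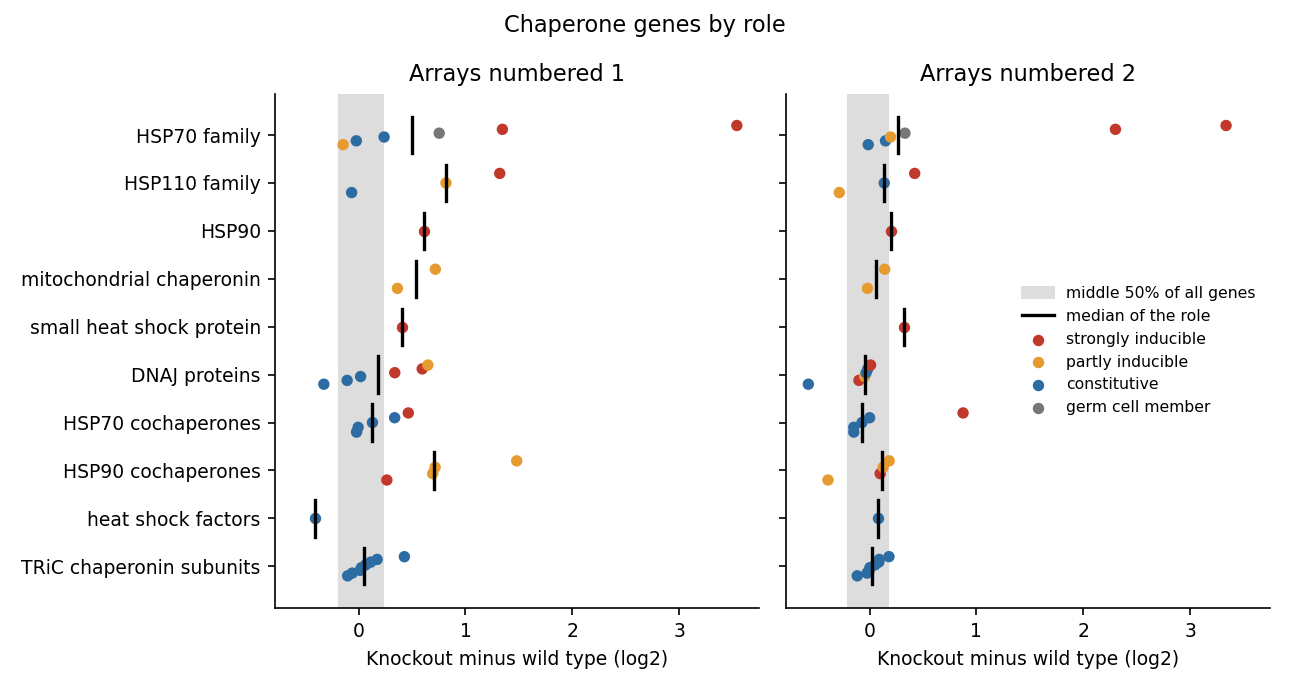
Difference between knockout and wild-type array (log2) within arrays numbered 1 (left) and numbered 2 (right) for 37 chaperone genes, in rows by role; black bars are role medians and the grey band is the interquartile range of all 10211 genes, -0.18 to 0.23 on the left and -0.20 to 0.17 on the right. The TRiC median, 0.04 and 0.03, lies inside the band in both panels, and the median of the HSP90 cochaperones, 0.70 and 0.11, only in the right one.

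Set side by side, the 9 strongly inducible genes had a median difference of 0.41 and the 19 constitutive genes of 0.03, 0.38 apart. The 8 partly inducible genes were at 0.28. Within arrays numbered 1 the medians were 0.60 for the strongly inducible, 0.70 for the partly inducible and 0.01 for the constitutive genes. Within arrays numbered 2 they were 0.32, 0.05 and -0.004. The partly inducible genes therefore lay with the strongly inducible ones in arrays numbered 1 and near the constitutive ones in arrays numbered 2, a difference between numbers that has no test. All 9 strongly inducible genes were positive in arrays numbered 1 and 8 in arrays numbered 2, where Dnajb4 was the exception. Of all kept probe sets 49.5% and 45.6% were positive. The difference was within 0.25 of 0 for 18 of the 19 constitutive genes, 3 of the 9 strongly inducible and 3 of the 8 partly inducible ones. The interquartile range over all genes was -0.15 to 0.15. Without Hspa1a and Hspa1b the strongly inducible median was 0.36, with 0.47 and 0.20 by number. The gap between the strongly inducible and constitutive medians was 0.14 without knockout replicate 1, 0.86 without knockout replicate 2 and 0.78 without wild-type replicate 1, and 0.64 when the kept probe sets of each gene were averaged.

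Heat shock element cores were counted in the 250 bases before the start of 33 members with a RefSeq promoter of GRCm38.p6. A core was found for 5 of 8 strongly inducible genes, 4 of 7 partly inducible ones and 4 of 17 constitutive ones, and for 14.5% of all 27025 genes in the table. The 17 include Ptges3, which has 0 cores and is in no class median of signals. A run of 3 alternating units was found for Hspd1, Hspe1 and Dnajb6, against 0.514% of all genes, and this longer motif was added after the data were seen. Both counts take Hspd1 and Hspe1, which share the same stretch, as separate genes. The count of cores does so too for Hspa1a and Hspa1b, whose windows are nearly identical. The elements of 3 members are shown to set classes beside each other: the strongly inducible Hsph1 (chr5:149636352-149636379, minus strand) and Hspb1 (chr5:135887792-135887839, plus strand), and the constitutive Dnajb6 (chr5:29735842-29735874, plus strand).
Hsph1: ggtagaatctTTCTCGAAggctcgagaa
Hspb1: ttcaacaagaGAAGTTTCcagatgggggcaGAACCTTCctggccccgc
Dnajb6: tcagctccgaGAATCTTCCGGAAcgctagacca
A match is a description of these letters only, and only exact matches within 250 bases were counted. Hspa1a and Hspa1b, with 1 core each, differed by 3.44 and 1.82. Dnajb6, with 2 overlapping cores, differed by -0.07, and Bag3, with no match in its window, by 0.67. Whether the elements had a part in these differences was not tested.

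Probe sets of the same gene could differ. Of the 23 chaperone genes with several kept probe sets, 9 had differences of both signs, or 39.1%, beside 54.3% of all 4927 genes with several. The median span between the probe sets of a gene in arrays numbered 1 was 0.66 for the chaperones and 0.39 for all such genes. A span widens with the number of probe sets per gene, which was not matched, so these medians are a description only. The widest spans there were 3.17 for Hspa8, 1.92 for Dnajb1, 1.54 for Hspa4, 1.15 for Cct3 and 1.12 for Ahsa1. Among strongly inducible genes, the probe sets that were not the brightest had a median of 1.37 in arrays numbered 1 and 0.35 in arrays numbered 2, and the brightest ones 0.60 and 0.32. Among constitutive genes the corresponding medians were 0.13 and -0.04, and 0.01 and -0.004. Over all 85 probe sets, 15 were at least 2-fold higher in the knockout array in arrays numbered 1 and 5 in arrays numbered 2. The shares of all probe sets were 1.24% and 2.14%. In either number 0 of the 85 were at least 2-fold lower, beside 0.973% and 2.62% of all probe sets. With shares this small, a count of 0 among 85 is no result about the chaperones.

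**Figure D4:**
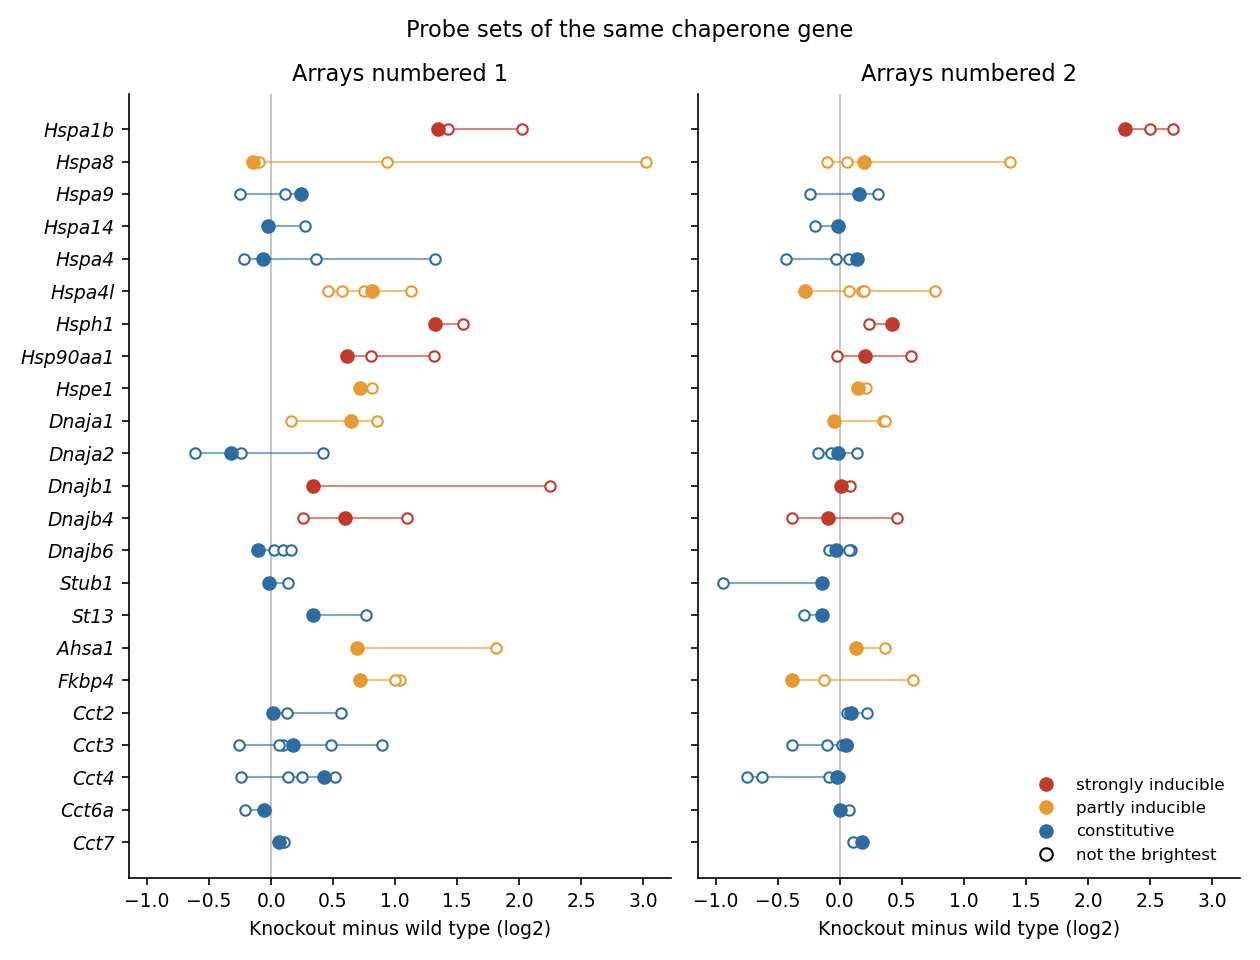
Difference between knockout and wild-type array (log2) for each kept probe set of the 23 chaperone genes with several, in arrays numbered 1 (left) and numbered 2 (right); filled points are the brightest probe set of a gene, open points the others, and lines join the probe sets of a gene. The probe sets of Hspa1b stay between 1.35 and 2.69 in both panels, while those of Hspa8 run from -0.15 to 3.03 on the left and from -0.11 to 1.37 on the right.

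Of 54 other genes of the chaperone network, 46 were measured, among them prefoldin subunits, further DNAJ and BAG proteins and mitochondrial proteases. In limma 0 of them were called by any of the 3 fits, and 19 were higher and 10 lower in both numbers. Their median was 0.05, with 0.12 and 0.02 by number. The largest differences of the same sign in both numbers were 0.52 for Dnajb5 (SE 0.66), 0.47 for Dnaja4 (SE 0.34) and -0.43 for Cdc37l1 (SE 0.38).

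Early stress and activation genes and markers of other cells also differed between these arrays. Of 12 measured immediate early and stress genes, 10 were higher in both numbers and 0 lower, with a median of 0.58 (0.75 and 0.61 by number), and Jun, the largest of them, had signals of 232.7 and 238.9 in wild type and 6631.6 and 5795.0 in knockout. Egr1 of the same list had 2925.6 and 4511.7 in wild type and 3281.7 and 4252.9 in knockout, with overlap and a difference of 0.04 (SE 0.39). The T cell list had a median of -0.04, with Cd4 between 2974.4 and 3432.4 and Cd3e between 3160.7 and 7706.7 on the 4 arrays. All 11 measured genes of 16 myeloid markers were higher in both numbers, and their summed signal was 1454 and 4148 on the wild-type arrays and 2501 and 16150 on the knockout arrays. Of 12 B cell markers 10 were measured, 8 were higher in both numbers, and the sums were 12852 and 20038 in wild type and 11755 and 33040 in knockout. Of all genes 27.7% were higher in both numbers. The filter uses the mean over all 4 arrays, so a marker can pass it mainly through the group where it is high. Cd14, Itgam, Mpo, Elane and Lcn2 of the myeloid list and Pax5 of the B cell list were below the filter. Of these myeloid genes, Mpo, Elane and Lcn2 were higher in both numbers. Itgam was lower in arrays numbered 1 (29.1 in wild type, 10.8 in knockout), and Cd14 in arrays numbered 2 (78.6 and 39.2). The medians by number were 0.04 and 1.23 for 5 plasma cell markers, 0.32 and 0.02 for 5 CD8 T and NK cell markers and -0.10 and -0.57 for 2 erythroid and platelet markers. In bulk RNA fewer cells of a type and less RNA per cell cannot be told apart, and the part of such cells in the chaperone differences was not tested. The Hspa1a difference was 3.54 in arrays numbered 1, where the myeloid median was 1.13 and the B cell median 0.16, and 3.34 in arrays numbered 2, where they were 2.33 and 1.55. Hspa1b, at 1.35 and 2.30 by number, and Bag3, at 0.47 and 0.87, had the larger difference in arrays numbered 2. The other 7 strongly inducible genes, Hspa1a among them, had it in arrays numbered 1.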

How the data were processed

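Affymetrix mouse arrays were hybridised with biotinylated cRNA from 5 micrograms of total RNA, per the labels' protocols. The values the authors deposited are MAS5 signal intensities on a linear scale, 1 per probe set; per the submitters' processing notes the tool was MAS5, with settings not given in the sources. Without detection calls, it cannot be said which probe sets were above background. Of 45101 probe sets, 64 controls were left out of the tests. Symbols came from the platform annotation.

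To each signal 15.3, the 25% quantile of all values, was added before log2 was taken, and the 22518 probe sets with a mean above the median were kept. A gene's value is that of its brightest kept probe set. The tests are two-sided, from limma 3.58.1 (R 4.3.3; lmFit, then eBayes), adjusted by Benjamini-Hochberg over every kept probe set and called at 0.05. The main comparison uses no block. Same-numbered arrays deviated together from their group means (correlation 0.804 across kept probe sets, which are no independent replicates). The hybridisation controls differed by number as well, so fits with the array number as a replicate block stand beside it. The fits were tested on simulated data: the fit without the block found none of the altered probe sets, and the block with a trended prior made more false calls than its threshold allows. The block without the trended prior, which gave the call of Hspa1a, was run on them too. Its outcome is not reported here.

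The members, their classes and the lists were chosen with earlier results of these data known, so no set test and no p adjusted over the list was computed. Every member gene may be named. Members whose groups do not overlap and strongly inducible members are given in full. Of the other chaperone genes, those named are the 3 with the largest difference of the same sign in both numbers. Genes of the marker and stress lists were named as defining examples after their values were seen. Promoter windows are RefSeq's, of GRCm38.p6; the array values name no build.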

Additional observations from a re-analysis of the deposited data

How the results depend on the processing

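The limma count of chaperone probe sets past an adjusted p of 0.05 was 0 under all alternatives without the array number as a replicate block; it was 1 with the block alone and 9 with a trended prior as well. The median difference over the chaperone genes, 0.16, ranged from 0.001 to 0.31 with 1 array left out and moved by less than the spread between numbers (SD 0.151) elsewhere. The gap between strongly inducible and constitutive medians, 0.38, was 0.58 within arrays numbered 1 and 0.33 within arrays numbered 2, comparisons chosen after the data were seen, as were those without Hspa1a and Hspa1b and without probe sets marked x or s. It was 0.64 with the mean of kept probe sets and ranged from 0.14 to 0.86 with 1 array left out. With 1 array left out, genotype and array number are mixed, and the fit assumes that the lone array varies like the others; 26 of 37 genes then turned in sign at least once, and the cause was not tested. The ranges with 1 array left out were -0.35 to 0.40 for Hspa8, -0.23 to 0.20 for Hspa14, -0.15 to 0.22 for Hspa4, -0.24 to 0.77 for Hspa4l, -0.26 to 2.00 for Hsph1, -0.049 to 0.39 for Hspd1, -0.68 to 1.54 for Hspe1, -0.15 to 0.75 for Dnaja1, -0.76 to 1.10 for Dnajb1, -0.003 to 0.50 for Dnajb4, -0.26 to 0.12 for Dnajb6, -0.67 to 0.11 for Dnajc7, -0.28 to 0.28 for Bag1, -0.28 to 0.33 for Hspbp1, -0.30 to 0.13 for Stub1, -0.27 to 0.46 for St13, -0.58 to 0.94 for Chordc1, -0.30 to 0.62 for Fkbp4, -0.48 to 0.15 for Hsf2, -0.027 to 0.14 for Tcp1, -0.20 to 0.30 for Cct2, -0.40 to 0.62 for Cct3, -0.087 to 0.20 for Cct5, -0.064 to 0.001 for Cct6a, -0.039 to 0.28 for Cct7 and -0.42 to 0.20 for Cct8. Among the other alternatives 4 genes turned: Hspa14 to 0.009, Dnajb6 to 0.026 and Cct4 to -0.041 with the mean of kept probe sets, and Cct2 to -0.002 with quantile normalization. The sign of the other 10 genes turned under no alternative tried. The number of arrays limits the precision throughout.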

Other observations

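Both probe sets assigned to Ptges3, which encodes the HSP90 partner p23, and to its pseudogene had higher signals on the knockout array within each number. The first had 4694.4 and 5721.0 on the wild-type arrays and 6759.6 and 6509.5 on the knockout arrays, without overlap, and the second 3824.6 and 6280.0 against 4507.7 and 6777.9, with overlap. They differed by 0.36 and 0.17.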
